A study of Mus musculus with 4 samples.

Results

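Of 10 genes for secreted inflammatory factors and their partners in C3H10T1/2 cells, 6 (Ccl2, Ccl7, Cxcl1, Cxcl5, Il6 and Lif) were 4.96-fold to 77.4-fold higher in DKO clone 1 than in DKO clone 5. Cxcl12 was highest in the DKO clones and higher in PRDX1MT than in WT, Il1rl1 was lower in every edited library than in WT, and Ptgs2 differed between libraries by at most 1.47-fold. The set was a list of symbols chosen with earlier results of these data known. It held the chemokines Ccl2, Ccl7, Cxcl1, Cxcl5 and Cxcl12, the cytokines Il6, Lif and Csf1, the receptor gene Il1rl1 and the enzyme gene Ptgs2. All 10 were found among the 54532 gene identifiers of the deposited counts and all 10 passed the filter on low counts. C3H10T1/2 is an established mouse mesenchymal stem cell line that can form bone, cartilage, fat and muscle. Bulk RNA-seq counts came from 4 libraries. In the DKO group Dnmt3a and Dnmt3b, the de novo DNA methyltransferase genes, were knocked out together, with 1 library each from clone 1 and clone 5. PRDX1MT cells (1 library) were edited by CRISPR at the splice acceptor of Prdx1 intron 5 and carry the genotype label PRDX1-KO. WT cells (1 library) were unedited. The labels leave unsaid if Prdx1 was edited in the DKO clones too, so the effect of the 2 Dnmt3 genes cannot be told apart from that of a second edit or of the choice of clone. Per the series design text the lines served to study silencing of Mmachc, and these inflammatory genes were not its subject.

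Chemokines are small secreted proteins that draw leukocytes along a gradient by binding G protein-coupled receptors. Stromal cells make them at rest, as with Cxcl12, or after NF-kB and AP-1 are activated by interleukin 1, tumour necrosis factor or stress, as with Ccl2, Cxcl1 and Il6. Their mRNAs often carry AU-rich elements in the 3′ untranslated region, which proteins of the tristetraprolin family (Zfp36) bind to bring about rapid decay.

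The libraries held 27570136 to 37685798 counts, and between 25191 and 26537 genes had at least 1 read. Levels are library-size-scaled counts (CPM), adjusted with TMM factors, and 3 reads, the limit that a count of 0 allows, were worth 0.0729 to 0.121 CPM. Prdx1, the edited gene of PRDX1MT, was at 392 CPM in DKO clone 1, 332 CPM in DKO clone 5, 31.1 CPM in PRDX1MT and 399 CPM in WT. Dnmt3a was at 31.3 and 25.9 CPM in DKO clones 1 and 5, 80.8 CPM in PRDX1MT and 43.7 CPM in WT, and Dnmt3b was at 2.83, 2.03, 3.74 and 3.28 CPM in the same libraries. Both genes thus kept reads in the DKO clones, and no label gives the edited sites. Of 11 mesenchymal stromal markers, the abundant Col1a1, Col1a2 and Vim ranged from 5315 (Vim in WT) to 19477 CPM (Col1a1 in DKO clone 5). Col1a1 was at 6536 CPM in DKO clone 1. Nt5e was low throughout, with 15, 16, 19 and 33 reads in DKO clone 1, DKO clone 5, PRDX1MT and WT. Thy1 had 27, 38 and 22 reads in DKO clone 1, DKO clone 5 and PRDX1MT against 1192 reads in WT. Gm26917, a noncoding RNA gene, took 5.36% of counts in DKO clone 1, 12.2% in DKO clone 5, 22.3% in PRDX1MT and 10.5% in WT, and without it as many of the 10 genes were called in both DKO tests, in PRDX1MT against WT and in DKO clone 1 against DKO clone 5.

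Promoter and 3′ sequences of these genes are given as description only, and their part in the differences between libraries was not tested. RefSeq promoter windows (GRCm38.p6), each from 250 bases before the transcription start to 50 after it, were at hand for 7 of the 10 genes. Ccl2, Ccl7 and Cxcl5 had none. Each was searched on both strands for an NF-kB type run (GGNNTTTCC), AP-1 (TGANTCA), C/EBP (TTGCNNAAT), the cyclic AMP element (TGACGTCA) and TATAAA, with overlapping matches allowed. Capitals mark the matches. Il6 and Cxcl1 stand for the genes that were high in DKO clone 1, Cxcl12 for a gene high in both clones, and the first Il1rl1 window for the gene that was low in every edited library.
Il6, chr5:30012864-30013163, plus strand: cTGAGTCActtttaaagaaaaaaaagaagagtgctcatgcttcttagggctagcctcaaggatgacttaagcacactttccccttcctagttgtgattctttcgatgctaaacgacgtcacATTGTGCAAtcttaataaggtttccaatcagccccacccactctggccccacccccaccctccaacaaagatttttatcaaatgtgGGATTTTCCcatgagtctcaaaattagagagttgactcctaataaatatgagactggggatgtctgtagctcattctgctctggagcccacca
Cxcl1, chr5:90890995-90891294, plus strand: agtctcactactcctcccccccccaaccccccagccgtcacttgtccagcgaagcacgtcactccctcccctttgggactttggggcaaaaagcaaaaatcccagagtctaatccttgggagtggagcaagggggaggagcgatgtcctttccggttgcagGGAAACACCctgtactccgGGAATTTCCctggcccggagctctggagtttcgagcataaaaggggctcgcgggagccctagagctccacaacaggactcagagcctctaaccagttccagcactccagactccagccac
Cxcl12, chr6:117168285-117168584, plus strand: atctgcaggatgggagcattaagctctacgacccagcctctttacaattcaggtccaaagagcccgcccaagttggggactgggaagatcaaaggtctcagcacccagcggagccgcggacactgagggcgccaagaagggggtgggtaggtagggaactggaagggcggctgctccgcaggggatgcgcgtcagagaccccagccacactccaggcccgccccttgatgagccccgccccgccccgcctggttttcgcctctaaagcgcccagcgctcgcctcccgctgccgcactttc
Il1rl1, chr1:40429320-40429619, plus strand: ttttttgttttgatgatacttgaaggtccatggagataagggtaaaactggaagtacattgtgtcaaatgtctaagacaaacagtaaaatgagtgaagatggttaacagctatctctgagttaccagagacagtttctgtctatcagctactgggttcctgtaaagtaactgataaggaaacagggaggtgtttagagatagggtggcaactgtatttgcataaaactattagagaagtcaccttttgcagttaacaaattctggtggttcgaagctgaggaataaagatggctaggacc

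The Il6 window held an NF-kB type run at -43 from the start, an AP-1 run at -249 and a C/EBP run at -129. The Cxcl1 window held 2 NF-kB type runs, at -89 on the minus strand and at -70 on the plus strand. The Cxcl12 window, the first Il1rl1 window and the Ptgs2 window held none of the 5 runs. Among the other windows, Lif had an AP-1 run at -228 and no NF-kB type run. Csf1 had an NF-kB type run at -154 and the second Il1rl1 window an NF-kB type run at 8 bases after the start. Among all 27025 promoters of the table, 5.72% held the NF-kB type run, 7.93% AP-1, 2.42% C/EBP, 1.88% the cyclic AMP element and 14.2% TATAAA. CG pairs, the sites that DNA methyltransferases modify, numbered 20 in the Cxcl12 window, 16 in Csf1, 16 in Ptgs2, 10 in Cxcl1, 7 in Lif, 3 in Il6, and 1 and 3 in the 2 Il1rl1 windows, beside a median of 7 over all promoters. A match to these letters describes the sequence and does not show that a factor binds there.

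In the 3′ untranslated regions (longest annotated form, GENCODE M21), the core AU-rich pentamer ATTTA occurred 14 times in Ptgs2, 10 times in Il6, 7 times each in Cxcl1 and Lif, 5 times in Cxcl5, 4 times each in Cxcl12 and Csf1, 3 times in Il1rl1, 2 times in Ccl7 and 1 time in Ccl2. Per kilobase, Cxcl1 had 11.8, Il6 5.995 and Ptgs2 5.73, and Cxcl12 had 0.771 and Il1rl1 0.924, beside a median of 1.26 over 20785 genes. The longer run TTATTTATT was found in Cxcl1, Lif and Ptgs2, and in 7.66% of all genes. The densest stretch of 30 bases in each of these 3 genes, with ATTTA in capitals, was as follows (GRCm38).
Cxcl1, chr5:90892602-90892631, plus strand: gagggtcctATTTATTTAtgtATTTATTTA
Lif, chr11:4272414-4272443, plus strand: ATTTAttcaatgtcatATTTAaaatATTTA
Ptgs2, chr1:150105794-150105823, plus strand: ccatATTTATTTATTTAtgtgaagaATTTA

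The question for DKO was whether the 10 genes differed from WT and from PRDX1MT beyond the spread between the clones. With edgeR's quasi-likelihood test and Benjamini-Hochberg adjustment, 0 of the 10 genes passed an adjusted p of 0.05 in DKO against WT, where 0.468% of 19446 genes did, and 0 passed in DKO against PRDX1MT, where 0.206% did. At an unadjusted p under 0.05, edgeR marked Ccl2, Ccl7, Cxcl12 and Il1rl1 in DKO against WT, beside 5.08% of all genes, and Ccl7 alone in DKO against PRDX1MT, beside 4.69% of all genes. DESeq2 called 2 of the 10, Ccl2 and Ccl7, in DKO against WT, beside 1.46% of the genes to which it gave an adjusted p, and 0 in DKO against PRDX1MT, beside 1.17%. Without the filter on low counts edgeR called 5 of the 10 against WT, beside 1.72% of 31043 genes, and 4 against PRDX1MT, beside 1.3%. With WT and PRDX1MT joined, it called 4 of the 10 without DKO clone 5, beside 0.474% of 19424 genes, and 0 without DKO clone 1, beside 0.113% of 18634 genes. The median log2 ratio of the 10 genes was 1.81 in DKO against WT (0.03 over all genes tested) and 1.52 in DKO against PRDX1MT (0.04 over all genes tested). Both comparisons share the DKO libraries. The 2 clones were so far apart for 6 of the genes that the group ratio describes neither clone, and the values are therefore given by library.

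**Figure D1:**
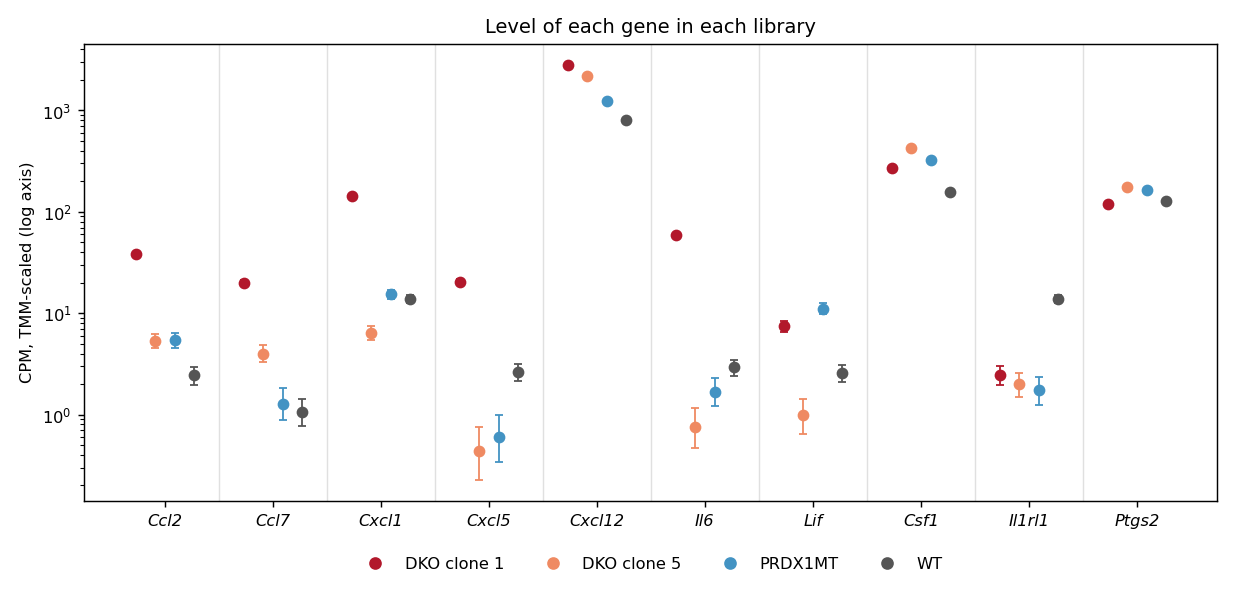
CPM (TMM-scaled, log axis) of each of the 10 genes in DKO clone 1, DKO clone 5, PRDX1MT and WT, 1 point per library, with bars for the 95% Poisson interval of counting error (often smaller than the point). DKO clone 1 was the highest library for Ccl2, Ccl7, Cxcl1, Cxcl5, Cxcl12 and Il6, and WT was the highest for Il1rl1.

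Comparisons between 2 libraries have no replicate check. A gene was taken to differ where it had 100 or more reads over both libraries, a log2 ratio of TMM-scaled CPM of 1 or more in either direction, and a 95% interval of the ratio that excluded no difference. Under this size rule, 6 of the 10 genes were higher in DKO clone 1 than in DKO clone 5 and 0 were lower, beside 10.7% of all genes with enough reads higher and 7.63% lower. DKO clone 1 against WT gave 7 genes higher and 1 lower (all genes 8.4% and 7.56%), and DKO clone 5 against WT gave 4 higher and 5 lower (all genes 5.69% and 8.58%). PRDX1MT against WT gave 3 higher and 2 lower of 9 with enough reads (all genes 7.25% and 7.57%). Scaled by total counts, which moves the median log2 ratio of all genes by -0.28 there, Ccl2 and Csf1 dropped out of the genes higher in PRDX1MT and Il6 joined the lower ones. These pairs share libraries and are not independent. Because the 10 genes were chosen with earlier results of these data known, a share above that of all genes is description only.

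The CC chemokines Ccl2 (MCP-1) and Ccl7 (MCP-3), which draw monocytes through Ccr2, were highest in DKO clone 1 and higher in both DKO clones than in WT. Ccl2 (ENSMUSG00000035385, chr11:82035571-82037453, plus strand, mm10) was at 38.3 CPM in DKO clone 1, 5.34 CPM in DKO clone 5, 5.42 CPM in PRDX1MT and 2.43 CPM in WT. DKO clone 5 and PRDX1MT overlapped within counting error, and both lay above WT. The ratio of DKO clone 1 to DKO clone 5 was 7.17 (95% interval 6.04 to 8.56), and PRDX1MT was 2.23-fold above WT (1.71 to 2.92). For the DKO group (21.8 ± 23.3 CPM, SD, n = 2) against WT, edgeR gave a log2 ratio of 3.16 (SE 1.17, Benjamini-Hochberg adjusted p = 0.796), and DESeq2 gave 3.19 (adjusted p = 0.049999). Gm17268, which overlaps Ccl2 on the other strand and shares no exon with it, had at most 1 read. In bulk RNA, fewer cells expressing a gene and less of its RNA in each cell cannot be told apart, here and in all that follows.

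Ccl7 (ENSMUSG00000035373, chr11:82045712-82047525, plus strand) was at 19.8 CPM in DKO clone 1, 3.99 CPM in DKO clone 5, 1.29 CPM in PRDX1MT and 1.07 CPM in WT. Both DKO clones lay above both other libraries, which overlapped each other. Ccl7 shared this order with Cxcl12, and 12.6% of the 19446 genes tested showed it. DKO clone 1 was 4.96-fold above DKO clone 5 (4.05 to 6.12), and DKO clone 5 was 3.74-fold above WT (2.61 to 5.43). The edgeR log2 ratio of DKO (11.9 ± 11.2 CPM, SD, n = 2) was 3.47 against WT (SE 1.11, Benjamini-Hochberg adjusted p = 0.586) and 3.21 against PRDX1MT (SE 1.10, adjusted p = 0.808), and DESeq2 gave 3.50 against WT (adjusted p = 0.0200). Ccl2 and Ccl7 lie 8258 bp apart and were each other's nearest in pattern among the 10 genes, with a distance of 1.16 in centred log2 CPM over the 4 libraries. The 4 other chemokine genes within 300 kb, Ccl8, Ccl11, Ccl1 and Ccl12, had at most 3 reads in any library, so within this cluster reads were found for Ccl2 and Ccl7 and hardly for their neighbours.

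The CXC chemokines Cxcl1 (KC) and Cxcl5 (LIX) carry the ELR motif and draw neutrophils through Cxcr2. Both were high in DKO clone 1 and lower in DKO clone 5 than in WT. Cxcl1 (ENSMUSG00000029380, chr5:90891241-90893115, plus strand) was at 144 CPM in DKO clone 1, 6.39 CPM in DKO clone 5, 15.5 CPM in PRDX1MT and 13.8 CPM in WT. PRDX1MT and WT did not differ beyond counting error. In DKO clone 1 Cxcl1 was 22.6-fold above DKO clone 5 (19.4 to 26.4) and 10.4-fold above WT (9.54 to 11.4), whereas DKO clone 5 was 2.17-fold below WT (1.83 to 2.58). The DKO group (75.2 ± 97.4 CPM, SD, n = 2) straddled WT, with an edgeR log2 ratio of 2.44 (SE 1.48, Benjamini-Hochberg adjusted p = 0.9996) that was -1.11 for DKO clone 5 alone.

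Cxcl5 (ENSMUSG00000029371, chr5:90759360-90761624, plus strand) was at 20.4 CPM in DKO clone 1, 0.436 CPM in DKO clone 5, 0.603 CPM in PRDX1MT and 2.62 CPM in WT. DKO clone 5 (12 reads) and PRDX1MT (15 reads) overlapped, and both were below WT (108 reads). In DKO clone 1 Cxcl5 was 46.8-fold above DKO clone 5 (26.6 to 90.9), and PRDX1MT was 4.35-fold below WT (2.53 to 8.05). The edgeR log2 ratio of DKO was 1.99 against WT (SE 1.69, Benjamini-Hochberg adjusted p = 0.9996), and it was -2.43 for DKO clone 5 alone. Cxcl5 and Cxcl1 lie 129616 bp apart on chromosome 5. Of the other chemokine genes within 300 kb, Cxcl15 had 21 reads in DKO clone 1, 0 in DKO clone 5, 1 in PRDX1MT and 5 in WT. Ppbp had 8, Pf4 5 and Cxcl3 2 reads in DKO clone 1 and 0 elsewhere, and Cxcl2 had 0 in all 4 libraries.

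Cxcl12 (SDF-1), which keeps haematopoietic cells in the marrow through Cxcr4, was the most abundant of the 10 genes in every library. Cxcl12 (ENSMUSG00000061353, chr6:117168535-117181367, plus strand) was at 2808 CPM in DKO clone 1, 2205 CPM in DKO clone 5, 1230 CPM in PRDX1MT and 807 CPM in WT. The 4 libraries did not overlap within counting error, and both clones lay above both other libraries. Cxcl12 was 3.48-fold above WT in DKO clone 1 and 2.73-fold above it in DKO clone 5, PRDX1MT was 1.52-fold above WT, and the clones differed 1.27-fold (1.26 to 1.29). The DKO mean of 2507 ± 426 CPM (SD, n = 2) gave an edgeR log2 ratio of 1.63 against WT (SE 0.64, Benjamini-Hochberg adjusted p = 0.867) and 1.03 against PRDX1MT (SE 0.62, adjusted p = 1.0). Cxcl12 made up 80.5%, 78.1%, 70.0% and 71.4% of the reads of the 10 genes in DKO clone 1, DKO clone 5, PRDX1MT and WT. The summed level of the 10 genes, 3490, 2824, 1758 and 1131 CPM in the same libraries, therefore follows Cxcl12.

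Among 14472 genes with at least 100 reads, those nearest to Cxcl12 in centred log2 CPM over the 4 libraries were Duox1 (distance 0.13), Lpcat2 (0.19) and Gm26569 (0.21). Duox1, a hydrogen peroxide-producing oxidase gene, was at 13.8 and 9.91 CPM in DKO clones 1 and 5, 5.83 CPM in PRDX1MT and 3.50 CPM in WT. With 4 libraries many genes share an order, and the distance describes these libraries only. Of the receptors for Cxcl12, Ackr3, an atypical receptor that removes the chemokine, was at 32.5 CPM in DKO clone 1, 21.0 CPM in DKO clone 5, 29.4 CPM in PRDX1MT and 26.1 CPM in WT. Cxcr4 had 7, 11, 51 and 13 reads in the same libraries, and Ccr2 and Cxcr2 had 0 in all 4.

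**Figure D2:**
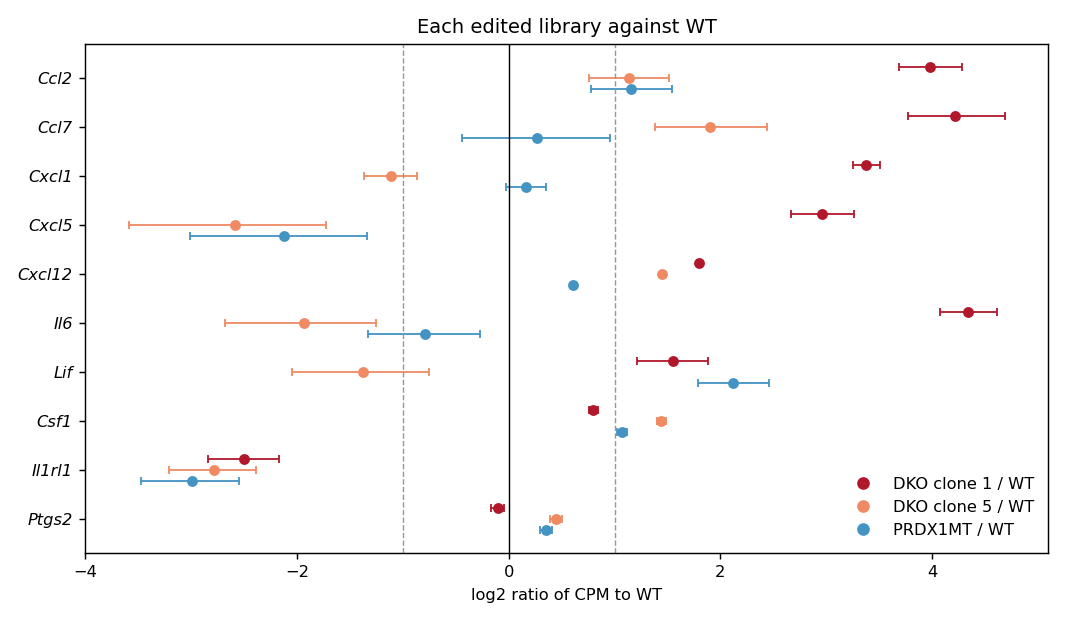
Log2 ratio of CPM to WT for each gene in DKO clone 1, DKO clone 5 and PRDX1MT, with 95% intervals of counting error. The solid line marks no difference and the dashed lines a log2 ratio of 1 in size. DKO clones 1 and 5 lie on opposite sides of WT for Cxcl1, Cxcl5, Il6, Lif and, with both within the dashed lines, Ptgs2, and all 3 libraries lie below WT for Il1rl1.

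The IL-6 family cytokines Il6, a driver of the acute phase response, and Lif, which keeps mouse embryonic stem cells undifferentiated, both signal through the shared receptor chain Il6st (gp130) to Stat3. Il6 (ENSMUSG00000025746, chr5:30013114-30019981, plus strand) was at 59.0 CPM in DKO clone 1, 0.762 CPM in DKO clone 5, 1.69 CPM in PRDX1MT and 2.91 CPM in WT, from 2106, 21, 42 and 120 reads. DKO clone 1 stood apart, and the other 3 libraries were all under 3 CPM with DKO clone 5 lowest. The ratio of DKO clone 1 to DKO clone 5 was 77.4 (50.5 to 125), the largest among the 10 genes, and DKO clone 5 was 3.82-fold below WT (2.39 to 6.40). For the DKO group (29.9 ± 41.2 CPM, SD, n = 2) edgeR gave a log2 ratio of 3.36 against WT (SE 1.95, Benjamini-Hochberg adjusted p = 0.9996), and DKO clone 5 alone gave -1.85. Il6 was nearest in pattern to Cxcl5 (distance 1.11), and Il6 was also the nearest of the 10 genes to Cxcl1 (1.47).

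Lif (ENSMUSG00000034394, chr11:4257557-4272514, plus strand) differed from the others in being highest in PRDX1MT. It was at 7.45 CPM in DKO clone 1, 0.980 CPM in DKO clone 5, 11.1 CPM in PRDX1MT and 2.55 CPM in WT. The 4 libraries did not overlap within counting error, with PRDX1MT above DKO clone 1 and DKO clone 5 below WT. PRDX1MT was 4.35-fold above WT (3.46 to 5.497), and DKO clone 1 was 7.61-fold above DKO clone 5 (5.11 to 11.8). The edgeR log2 ratio of DKO (4.22 ± 4.58 CPM, SD, n = 2) was 0.73 against WT (SE 1.08, Benjamini-Hochberg adjusted p = 0.9996), with DKO clone 5 alone at -1.33, and -1.39 against PRDX1MT (SE 1.00, adjusted p = 1.0).

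Of 21 other genes for ligands, receptors and signalling of the IL-6 family, 19 were tested and 0 passed by edgeR or DESeq2 in DKO. By the size rule, 8 of 17 with enough reads were higher in DKO clone 1 than in DKO clone 5 (Il6ra, Lifr, Osmr, Stat3, Socs1, Socs3, Pim1 and Cebpb), beside 10.7% of all genes, and 0 lower, beside 7.63%. The shared chain Il6st was at 591 CPM in DKO clone 1, 559 CPM in DKO clone 5, 476 CPM in PRDX1MT and 456 CPM in WT. Stat3 was at 301, 119, 258 and 184 CPM in DKO clone 1, DKO clone 5, PRDX1MT and WT, and Jak1, the kinase bound to gp130, at 244, 257, 146 and 162 CPM. Socs3, a feedback inhibitor induced by Stat3 and singled out after its values were seen, was at 303 CPM in DKO clone 1, 85.3 CPM in DKO clone 5, 151 CPM in PRDX1MT and 64.1 CPM in WT. The receptor chain Il6st thus varied little, whereas Stat3 and its feedback gene Socs3 were higher in DKO clone 1 and PRDX1MT than in DKO clone 5. The 2 genes parted in WT, which lay above DKO clone 5 for Stat3 and below it for Socs3.

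Csf1 (M-CSF), the growth factor of macrophages that signals through Csf1r, was higher in every edited library than in WT and highest in DKO clone 5. Csf1 (ENSMUSG00000014599, chr3:107741048-107760469, minus strand) was at 272 CPM in DKO clone 1, 424 CPM in DKO clone 5, 327 CPM in PRDX1MT and 156 CPM in WT. No 2 libraries overlapped within counting error, with WT lowest. DKO clone 5 was 2.72-fold (2.64 to 2.80), PRDX1MT 2.10-fold (2.03 to 2.17) and DKO clone 1 1.74-fold (1.69 to 1.80) above WT, so DKO clone 1 missed the size rule. The edgeR log2 ratio of DKO (348 ± 108 CPM, SD, n = 2) was 1.16 against WT (SE 0.55, Benjamini-Hochberg adjusted p = 0.9996) and 0.09 against PRDX1MT (SE 0.52, adjusted p = 1.0). Of the 9 other colony-stimulating factor and receptor genes, 3 were tested and 0 passed by edgeR or DESeq2. Il34, the other ligand of Csf1r, was at 4.85, 6.42, 5.34 and 1.97 CPM in DKO clone 1, DKO clone 5, PRDX1MT and WT. Csf1r itself was at 1.60, 2.03, 3.41 and 0.826 CPM, and Kitl, the ligand of Kit, at 126, 162, 83.2 and 164 CPM. Both ligands of Csf1r were thus lowest in WT, while Kitl was lowest in PRDX1MT.

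Il1rl1 (ST2), the receptor of the alarmin interleukin 33, was the only gene of the 10 below WT by the size rule in all 3 edited libraries. Il1rl1 (ENSMUSG00000026069, chr1:40429570-40465415, plus strand) was at 2.44 CPM in DKO clone 1, 2.00 CPM in DKO clone 5, 1.73 CPM in PRDX1MT and 13.8 CPM in WT, from 87, 55, 43 and 567 reads. The 3 edited libraries overlapped within counting error, and WT stood apart. Relative to WT, Il1rl1 was 5.65-fold lower in DKO clone 1 (4.50 to 7.16), 6.90-fold lower in DKO clone 5 (5.22 to 9.27) and 7.97-fold lower in PRDX1MT (5.84 to 11.1). The edgeR log2 ratio of DKO (2.22 ± 0.312 CPM, SD, n = 2) was -2.63 against WT (SE 0.61, Benjamini-Hochberg adjusted p = 0.219), the smallest adjusted p of the 10 genes, and 0.36 against PRDX1MT (SE 0.66, adjusted p = 1.0). With 1 WT library, a difference shared by the edited lines cannot be told apart from a peculiarity of that library. Thy1, given above, was likewise low in the edited libraries.

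Among 21 other interleukin 1 family and signalling genes, 16 were tested in DKO against WT and 1 passed by edgeR and by DESeq2. Irak3, an inhibitor of interleukin 1 and Toll-like receptor signalling, had 2 reads in DKO clone 1, 3 in DKO clone 5, 106 in PRDX1MT and 318 in WT. It was close to the counting limit in both clones and fell by 6.52 on the log2 scale in DKO against WT (SE 0.82, edgeR with Benjamini-Hochberg adjustment, adjusted p = 0.0296). That edgeR call depended on the filter, since with 1 CPM required in at least 2 libraries 0 of all 13847 genes passed. Il1rn, the antagonist of the interleukin 1 receptor, was at 1034 CPM in DKO clone 1, 49.98 CPM in DKO clone 5, 96.9 CPM in PRDX1MT and 572 CPM in WT. DKO clone 1 was 20.7-fold above DKO clone 5 for Il1rn, but here WT was also high. Il33, the ligand of Il1rl1, had 204, 2, 3 and 15 reads in DKO clone 1, DKO clone 5, PRDX1MT and WT, and was singled out after its values were seen. Transcripts of the inducers were scarce, since Tnf and Il1b had 0 reads in every library and Il1a at most 4. The receptor Tnfrsf1a was at 159, 123, 94.4 and 102 CPM, and the kinase Irak1 at 100, 104, 91.0 and 71.9 CPM, in DKO clone 1, DKO clone 5, PRDX1MT and WT.

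Ptgs2 (COX-2), the inducible enzyme that begins prostaglandin synthesis, differed little between libraries, unlike the chemokines. Ptgs2 (ENSMUSG00000032487, chr1:150100031-150108227, plus strand) was at 119 CPM in DKO clone 1, 175 CPM in DKO clone 5, 163 CPM in PRDX1MT and 128 CPM in WT. DKO clone 1 was the lowest library and DKO clone 5 the highest. The largest difference, DKO clone 5 over DKO clone 1, was 1.47-fold (1.41 to 1.53). For the DKO group (147 ± 39.5 CPM, SD, n = 2) edgeR gave a log2 ratio of 0.20 against WT (SE 0.49, Benjamini-Hochberg adjusted p = 0.9996), and it was -0.11 for DKO clone 1 alone. Of 22 other prostaglandin genes, 17 were tested and 0 passed by edgeR or DESeq2. Ptgs1, the constitutive enzyme, was at 112, 97.8, 119 and 139 CPM in DKO clone 1, DKO clone 5, PRDX1MT and WT. Pla2g4a, the phospholipase that frees arachidonic acid, was at 30.8, 59.1, 30.3 and 75.2 CPM, and the synthase Ptges3 at 117, 158, 109 and 169 CPM. By the size rule Pla2g4a was lower in PRDX1MT and in DKO clone 1 than in WT.

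**Figure D3:**
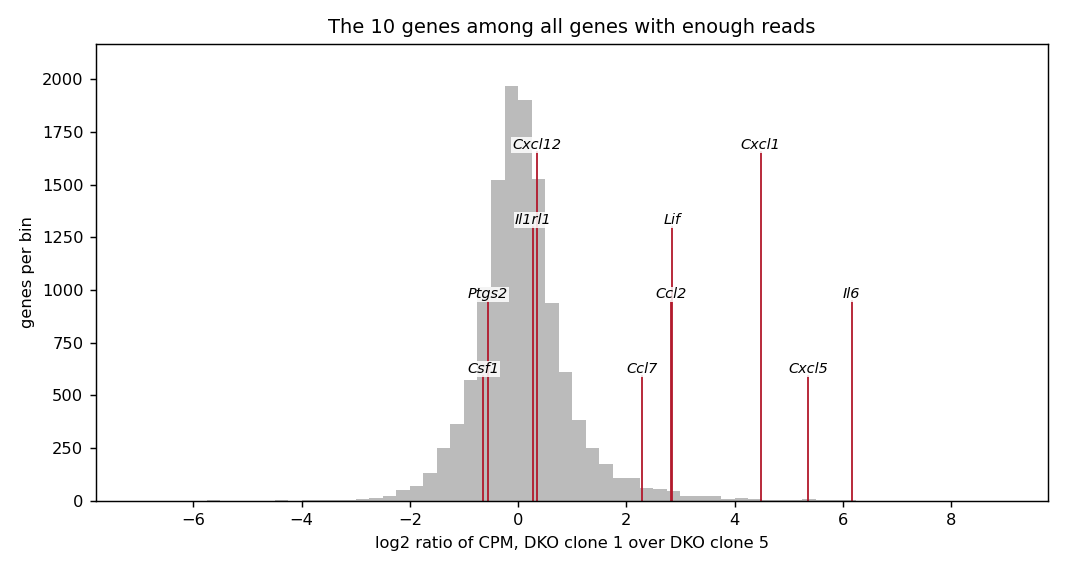
Number of genes per bin of 0.25 in the log2 ratio of CPM, DKO clone 1 over DKO clone 5 (prior count 2), over 12317 genes with at least 100 reads in the 2 clones together, with the 10 genes as labelled lines. Csf1, Ptgs2, Il1rl1 and Cxcl12 lie within the bulk between -0.64 and 0.35, and the other 6 lie from 2.29 to 6.16.

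Compared per kilobase of merged exon, the order of the 10 genes changed with the library. Cxcl12 was first in all 4 libraries, at 343 CPM per kb in DKO clone 1, 270 in DKO clone 5, 150 in PRDX1MT and 98.7 in WT. Next came Csf1 and Ptgs2 in DKO clone 5 (80.2 and 38.2 CPM per kb), PRDX1MT (61.9 and 35.7) and WT (29.5 and 28.0). In DKO clone 1 Cxcl1 came next at 76.9 CPM per kb, with Csf1 at 51.4, Ccl2 at 33.6 and Ptgs2 at 26.0. Il6 was at 24.3 CPM per kb in DKO clone 1, against 0.314 CPM per kb in DKO clone 5. The lowest was Il1rl1 in DKO clone 1 (0.354 CPM per kb) and in PRDX1MT (0.251), and Lif in DKO clone 5 (0.225) and in WT (0.586).

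The pathway lists around the 10 genes were examined for the same split between the clones. They too were chosen with earlier results of these data known, so a share above that of all genes is description only. Over 162 further genes in 8 lists, 106 were tested in DKO. In DKO against WT, 0 rose and 1 (Irak3) fell by edgeR and by DESeq2, with 9 at an unadjusted p under 0.05 by edgeR, beside 5.08% of all genes. In DKO against PRDX1MT, 0 changed by edgeR with 10 at an unadjusted p under 0.05, beside 4.69% of all genes, and DESeq2 called Ccl9 higher and Irak3 lower. By the size rule, 25 of 83 genes with enough reads (30.1%) were higher in DKO clone 1 than in DKO clone 5 and 0 lower, beside 10.7% of all genes higher and 7.63% lower. Their median log2 ratio was 0.38 (0.02 over all genes). DKO clone 1 against WT gave 26 higher (31.3%) and 3 lower (3.61%) of 83, beside 8.4% and 7.56% of all genes. DKO clone 5 against WT gave 5 higher and 5 lower of 81 (6.17% each), beside 5.69% and 8.58% of all genes. PRDX1MT against WT gave 17 higher (20.7%) and 7 lower (8.54%) of 82, beside 7.25% and 7.57% of all genes. In DKO clone 5 the lists were thus near the share of all genes.

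Of 30 other chemokine genes, 7 were tested and 0 passed by edgeR in DKO. By the size rule, 3 of the 4 with enough reads in the clones (Ccl6, Ccl9 and Cx3cl1) were higher in DKO clone 1 than in DKO clone 5, beside 10.7% of all genes. Ccl9, a chemokine of myeloid cells, was at 68.9 CPM in DKO clone 1, 7.15 CPM in DKO clone 5, 2.41 CPM in PRDX1MT and 5.95 CPM in WT. Cx3cl1 (fractalkine) was at 77.0, 19.1, 36.1 and 29.3 CPM in the same libraries, and Ccl25, the chemokine of the thymus and gut, at 14.2, 13.3, 11.4 and 12.9 CPM. Ccl9 and Cx3cl1 shared the high level in DKO clone 1, while Ccl25 hardly varied. Of 22 chemokine receptors, 9 were tested and 0 passed by edgeR or DESeq2. The 3 with the most reads were Ackr3, given above, Ccr10 with 91, 56, 39 and 72 reads, and Cx3cr1 with 25, 41, 33 and 22 reads in DKO clone 1, DKO clone 5, PRDX1MT and WT.

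Of 24 NF-kB factors and target genes, 22 were tested and 0 passed by edgeR or DESeq2 in DKO. By the size rule, 6 of 19 (Relb, Nfkbie, Nfkbiz, Tnfaip2, Birc3 and Vcam1) were higher in DKO clone 1 than in DKO clone 5, beside 10.7% of all genes, and 0 lower. Nfkbiz, an inducible cofactor of NF-kB needed for Il6 induction in macrophages, was at 301 CPM in DKO clone 1, 69.9 CPM in DKO clone 5, 144 CPM in PRDX1MT and 81.2 CPM in WT. Tnfaip2 was at 188, 54.3, 91.2 and 48.3 CPM, and Nfkb1, the p105 and p50 subunit gene, at 126, 103, 105 and 94.9 CPM. Nfkbiz and Tnfaip2 were thus highest in DKO clone 1, while Nfkb1 varied little. Nfkbia and Tnfaip3, singled out after their values were seen, were highest in PRDX1MT. Nfkbia was at 96.4, 51.2, 143 and 41.04 CPM in DKO clone 1, DKO clone 5, PRDX1MT and WT. Tnfaip3 was at 17.5, 20.98, 30.05 and 6.29 CPM in the same libraries. Relb, Nfkbie and Birc3 were also at their highest level in PRDX1MT. By the size rule, 3 of 19 genes were higher in DKO clone 1 than in PRDX1MT and 0 lower. Their median log2 ratio was -0.0031.

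Of 13 genes for decay of AU-rich mRNAs and its control, all 13 were tested and 0 passed by edgeR or DESeq2 in DKO. By the size rule, 4 (Zfp36, Zfp36l1, Zc3h12a and Dusp1) were higher in DKO clone 1 than in DKO clone 5, beside 10.7% of all genes. Zfp36, the tristetraprolin gene, was at 1157 CPM in DKO clone 1, 79.8 CPM in DKO clone 5, 375 CPM in PRDX1MT and 147 CPM in WT. Dusp1, the phosphatase that turns off p38 kinase, was at 658, 142, 513 and 144 CPM, and Zfp36l2 at 600, 527, 560 and 242 CPM, in the same libraries. Zfp36 and Dusp1 are themselves rapidly induced genes, and both were higher in DKO clone 1 and in PRDX1MT than in WT by the size rule, as were Ccl2 and Lif among the 10 genes. Their part in the differences between the clones was not tested.

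**Figure D4:**
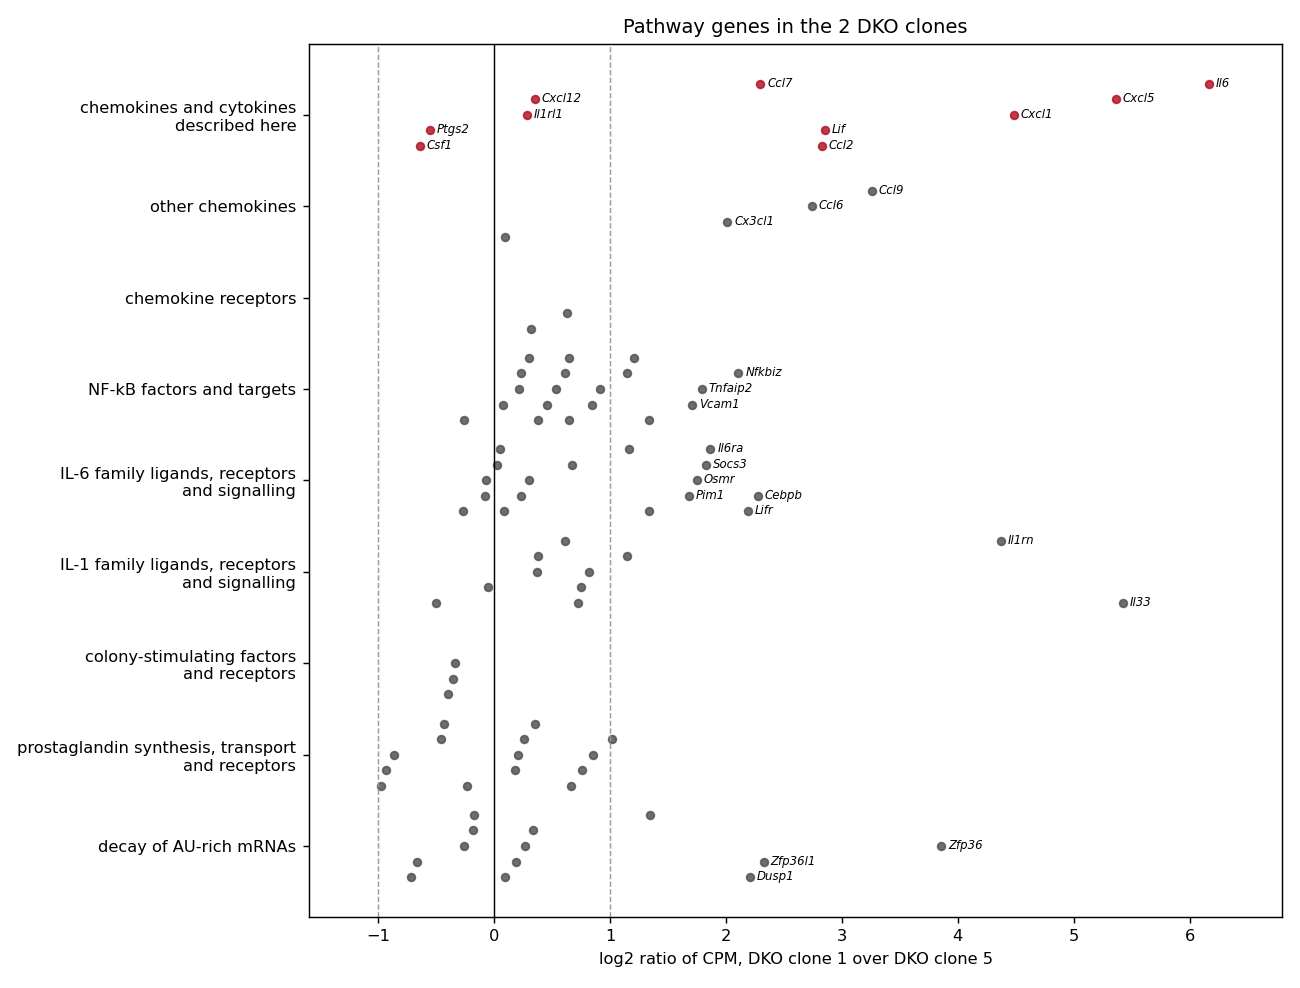
Log2 ratio of CPM (prior count 2), DKO clone 1 over DKO clone 5, for the 10 genes (red, all labelled) and for genes of the 8 further lists with at least 100 reads in the 2 clones together (grey, labelled from 1.5 in size). The vertical spread within a list has no meaning. No gene of the lists lies at or below the dashed line at -1, and Il33 (2 reads in DKO clone 5), Il1rn and Zfp36 lie farthest to the right.

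Markers of other cell types were read beside the high chemokine levels of DKO clone 1. The 12 macrophage and leukocyte markers summed to 22.2 CPM in DKO clone 1, 8.86 CPM in DKO clone 5, 13.6 CPM in PRDX1MT and 9.64 CPM in WT. Cd14, at 12.3 CPM, made up the largest share in DKO clone 1. Lyz2, a lysozyme gene of myeloid cells, had 133 reads in DKO clone 1, 1 in DKO clone 5, 51 in PRDX1MT and 10 in WT, and the lysosomal macrophage marker Cd68 had 156, 75, 71 and 87 reads in the same libraries. Cd14, Lyz2 and Cd68 were thus highest in DKO clone 1, and their part in the difference between the clones was not tested. The defining leukocyte gene Ptprc had 0 reads in DKO clone 1, DKO clone 5 and WT and 4 reads in PRDX1MT, and Adgre1, Tyrobp and Cd3e had 0 in all 4. The 6 endothelial markers summed to 6.31, 12.3, 16.8 and 5.90 CPM in DKO clone 1, DKO clone 5, PRDX1MT and WT. Most of each sum was Tek alone, at 5.97, 11.9, 16.4 and 5.78 CPM. Pecam1 had 12, 9, 6 and 3 reads, and the other 4 had at most 3 reads in any library. The 6 epithelial markers summed to 0.645, 2.11, 1.85 and 1.89 CPM in the same libraries.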

How the data were processed

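Libraries were made from ribosomal RNA-depleted total RNA with a stranded kit, per the labels' protocols. Alignment used STAR 2.6.1d and mm10, per the submitters' processing notes. How reads were counted, with which annotation and strand rule, is not given in the sources used here, so overlapping genes are uncertain. The authors deposited whole-number counts per gene, not normalized. GENCODE M21 matched 54495 of 54532 identifiers, and the unmatched 37 reached 0.00463% of a library's counts at most. In R 4.3.3, edgeR 4.0.16 fitted the 3 groups together (TMM, filterByExpr, 19446 genes, Benjamini-Hochberg adjusted p under 0.05). The 1 residual degree of freedom comes from the DKO clones (prior 6.54, common dispersion 0.187), so WT and PRDX1MT are assumed to vary like them, and clones are not repeat cultures. SE is the log2 ratio divided by the square root of F. The fit was checked on simulated data. Prior count was 2. Intervals (95%, Poisson for a level, conditional exact binomial for a ratio) cover counting error only. Named genes were the 10, each list's 3 with the most reads or any called, cluster neighbours within 300 kb, nearest patterns and the edited genes. Cxcr4, Ccr2, Cxcr2, Socs3, Il33, Tnf, Il1a, Il1b, Nfkbia and Tnfaip3 were added after their values were seen. Members and lists were chosen with earlier results of these data known. Il36a was not matched (21 of 22 in its list). Alternatives were DESeq2 1.42.0, other scalings, filters, groupings, left-out clones, read minimums, ratios and prior counts, and removal of Gm26917, which was chosen after seeing the data. Sequences are from RefSeq (GRCm38.p6 promoters) and GENCODE M21 transcripts.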

Additional observations from a re-analysis of the deposited data

Results flagged for a closer look

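Jak1 was above WT in both DKO clones (244 and 257 CPM in clones 1 and 5) and below it in PRDX1MT (146 CPM, against 162 CPM in WT), beyond counting error, with a log2 ratio of DKO to PRDX1MT of 0.78 (SE 0.48, edgeR with Benjamini-Hochberg adjustment, adjusted p = 1.0). Tnfrsf1a showed the same opposite directions, with 159 and 123 CPM in DKO clones 1 and 5 and 94.4 CPM in PRDX1MT, against 102 CPM in WT, and a log2 ratio of DKO to PRDX1MT of 0.58 (SE 0.47, edgeR with Benjamini-Hochberg adjustment, adjusted p = 1.0). The opposite directions did not pass the test of the difference in either gene.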

How the results depend on the processing

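In DKO against WT, 0 of the 10 genes passed by edgeR. Without a filter on low counts 5 did (Ccl2, Ccl7, Cxcl1, Il6 and Il1rl1), where 535 of 31043 genes passed in place of 91 of 19446, and DESeq2 called 2. In DKO against PRDX1MT the count was 0, and 4 (Ccl7, Cxcl1, Cxcl5 and Il6) without the filter, where 404 genes passed in place of 40. With 1 clone left out and WT and PRDX1MT joined, the count ranged from 0 (without clone 1) to 4 (without clone 5: Ccl2, Ccl7, Cxcl1 and Il6). All other scalings and the fits to fewer or joined groups gave 0, where 7 to 108 of all genes passed. The stricter filter (1 CPM in at least 2 libraries) also gave 0. There 0 of all 13847 genes passed in either comparison, so that count says nothing about the 10 genes. The cause of these differences was not tested. For PRDX1MT against WT the size rule marked 5 genes. With at least 500 reads it marked 2 (Csf1 and Il1rl1) of 5, beside 913 of 9533 among all genes. With a log2 ratio of at least 2 it marked 3 of 9, beside 397 of 12693. An edgeR contrast that borrows the spread of the DKO clones called 0 (1 at an unadjusted p under 0.05). It also called 0 of all 19446 genes, so that count says nothing about the 10 genes. Scaling by total counts, which shifts the median of all genes by -0.28 there, marked 4, with Il6 in place of Ccl2 and Csf1. DKO clone 1 against DKO clone 5 gave 5 to 8 genes under all settings. The 5 came with at least 500 reads, of 8 genes, beside 1444 of 9332 among all genes. The 8 came with a log2 ratio of at least 0.5, beside 5383 of 12317, and included Csf1 and Ptgs2, which were lower in DKO clone 1. With a log2 ratio of at least 2 it marked 6 of 10, beside 527 of 12317. Log2 ratios of DKO to WT with 1 clone left out ranged from -1.11 to 3.37 for Cxcl1, -2.43 to 2.93 for Cxcl5, -1.85 to 4.31 for Il6, -1.33 to 1.52 for Lif and -0.11 to 0.45 for Ptgs2. Those of DKO to PRDX1MT ranged from -0.023 to 2.80 for Ccl2, -1.27 to 3.21 for Cxcl1, -0.42 to 4.94 for Cxcl5, -1.09 to 5.08 for Il6, -0.27 to 0.37 for Csf1 and -0.46 to 0.10 for Ptgs2. No paired analysis was possible because the groups compared share fewer than 2 replicate numbers. Under 30 reads, as for Cxcl5, Il6 and Lif in DKO clone 5, a ratio is known only to within about its printed interval.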
